A study of Mus musculus with 4 samples.

Results

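Cathepsins are the proteases of the lysosome. Here 10 cathepsin genes were followed in mouse macrophages with and without iron and with and without small interfering RNA (siRNA) against Tfe3 and Tfeb. They were taken by name from the array's annotation (Ctsa, Ctsb, Ctsc, Ctsd, Ctsf, Ctsh, Ctsk, Ctsl, Ctss and Ctsz), out of 24841 named genes on the arrays. The list was chosen with earlier results of these data known. All 10 were well above background on all 4 arrays by their brightest probe, the probe used for each gene.

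The cells were RAW264, a macrophage-like line from a BALB/c mouse. All were transfected with siRNA, either against green fluorescent protein (siGFP, here called control), which mouse cells do not carry, or against Tfe3 and Tfeb (siTfe3/Tfeb). From 48 hours after transfection they were kept for 24 hours without iron or with 500 µM ferric chloride. Each of the 4 combinations of siRNA and iron was 1 sample of total RNA on a 1-colour Agilent array.

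With 1 array per group no difference between groups has a replicate check, and no test or p-value was computed. The error given is the spot SD, the SD that the scatter of repeated spots of 1 probe on 1 array gives for a log2 difference. It was averaged within bins of mean log2 level after scaling, and each gene takes the value of its bin. It was 0.063 for bright probes (above 2), 0.10 from 0 to 2 (Ctsf), 0.11 from -2 to 0 (Ctsk) and 0.49 below -2. The bins of Ctsf and Ctsk rest on 3 and 2 repeated probes, against 269 for the bright ones. The spot SD does not cover how far separate cultures would differ, and the number of arrays limits the precision. In RNA from whole cultures, fewer cells that carry a transcript and less of it per cell cannot be told apart.

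A cathepsin is made as an inactive precursor, carried to the lysosome by mannose 6-phosphate receptors and cut to its active form in that acidic compartment. Most cathepsins are cysteine proteases related to papain; Ctsd is an aspartic protease and Ctsa a serine carboxypeptidase. In macrophages they digest engulfed protein and prepare antigen for MHC class II, and cystatins and stefins hold cysteine cathepsins in check. Tfe3 and Tfeb are transcription factors of the MiT/TFE family. They bind E-box sequences in front of many lysosomal genes, those of cathepsins among them.

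As a check of the labels, the brightest Tfe3 probe gave 60.6% of its control signal in siTfe3/Tfeb cells kept without iron and 68.4% in those given iron. That of Tfeb gave 91.0% and 112% (log2 -0.14 and 0.16, spot SD 0.11), so the label was not borne out for Tfeb. The word knockdown below stands only for arrays so labelled, set against control arrays of the same iron condition. All 10 macrophage markers were well above background on every array, as was 1 of 5 fibroblast markers, 0 of 5 epithelial, 2 of 5 lymphocyte, 2 of 5 neutrophil and 1 of 5 mast cell markers.

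The sequence in front of the start site is shown for 3 members whose arrays differed in unlike ways: Ctsd, higher with iron, Ctsf, lower with iron, and Ctsk, lower with knockdown. Each is the 250 bases before the RefSeq start on GRCm38.p6, read 5′ to 3′ on the gene's strand. Capitals mark matches to the motifs given after them. The Ctsd window is chr7:142387828-142388077 (minus strand), the Ctsf window chr19:4854915-4855164 (plus strand) and the Ctsk window chr3:95498960-95499209 (plus strand).
Ctsd: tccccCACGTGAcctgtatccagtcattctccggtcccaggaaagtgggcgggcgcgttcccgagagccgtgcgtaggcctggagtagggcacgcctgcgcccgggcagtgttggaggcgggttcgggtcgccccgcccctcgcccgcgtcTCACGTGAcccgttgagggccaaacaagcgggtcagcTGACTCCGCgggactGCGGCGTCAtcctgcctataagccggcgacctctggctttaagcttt
Ctsf: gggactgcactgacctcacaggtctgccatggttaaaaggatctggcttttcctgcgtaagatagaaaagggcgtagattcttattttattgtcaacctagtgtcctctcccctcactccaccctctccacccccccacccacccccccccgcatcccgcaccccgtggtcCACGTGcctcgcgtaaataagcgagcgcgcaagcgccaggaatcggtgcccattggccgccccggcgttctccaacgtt
Ctsk: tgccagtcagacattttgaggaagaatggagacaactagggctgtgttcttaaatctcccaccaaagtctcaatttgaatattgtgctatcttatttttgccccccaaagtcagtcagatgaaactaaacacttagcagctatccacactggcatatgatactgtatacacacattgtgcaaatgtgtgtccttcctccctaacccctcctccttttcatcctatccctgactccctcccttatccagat

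The motifs were searched on both strands. They were the E-box CACGTG that MiT/TFE factors bind, its longer form TCACGTG, which holds the former, the variant TCATGTG, the antioxidant response element core TGACNNNGC and the AP-1 site TGANTCA. RefSeq windows were available for 8 members, and Ctsb and Ctsh had none. CACGTG was found in windows of 4 members, against 6.02% of all 32851 windows of this length. The Ctsd window held CACGTG at 2 places, beginning 245 and 98 bases before the start, both within the longer form that 3.13% of windows held. Ctsd also held TGACNNNGC at 2 places, and Ctsz at 1, against 10.2% of windows.

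Ctsf held 1 CACGTG, beginning 79 bases before the start, and the Ctsk, Ctss, Ctsc and Ctsz windows held none. The other matches were in Ctsl and in the second of the Ctsa windows, and both of those windows lie inside the annotated span of the gene. The Ctsa match, beginning 12 bases before the start, also lay within the longer form. No member window held TCATGTG or TGANTCA, which 3.25% and 6.75% of windows held. Whether the E-box letters go with the differences between arrays was not tested. A match is a description of these letters and not a binding site.

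With iron in control cells 4 of the 10 cathepsins were at least 1.5-fold higher (Ctsb, Ctsd, Ctsk and Ctsl) and 1 at least 1.5-fold lower (Ctsf). Of 14274 genes measured on both arrays 4.2% were 1.5-fold higher and 1.86% were 1.5-fold lower. In siTfe3/Tfeb cells, on a separate pair of arrays, the same 5 genes passed in the same directions, where 4.58% of genes were higher and 3.38% lower. No member reached 2-fold with iron, which 1.4% and 1.61% of genes did upwards and 0.266% and 0.453% downwards. The median log2 difference of the members was 0.30 in control cells and 0.36 in siTfe3/Tfeb cells, against -0.020 and -0.0065 for all genes. The members were chosen with earlier results of these data known, and the 1.5-fold cut was added after the values were seen. These counts and medians are therefore a description.

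**Figure D1:**
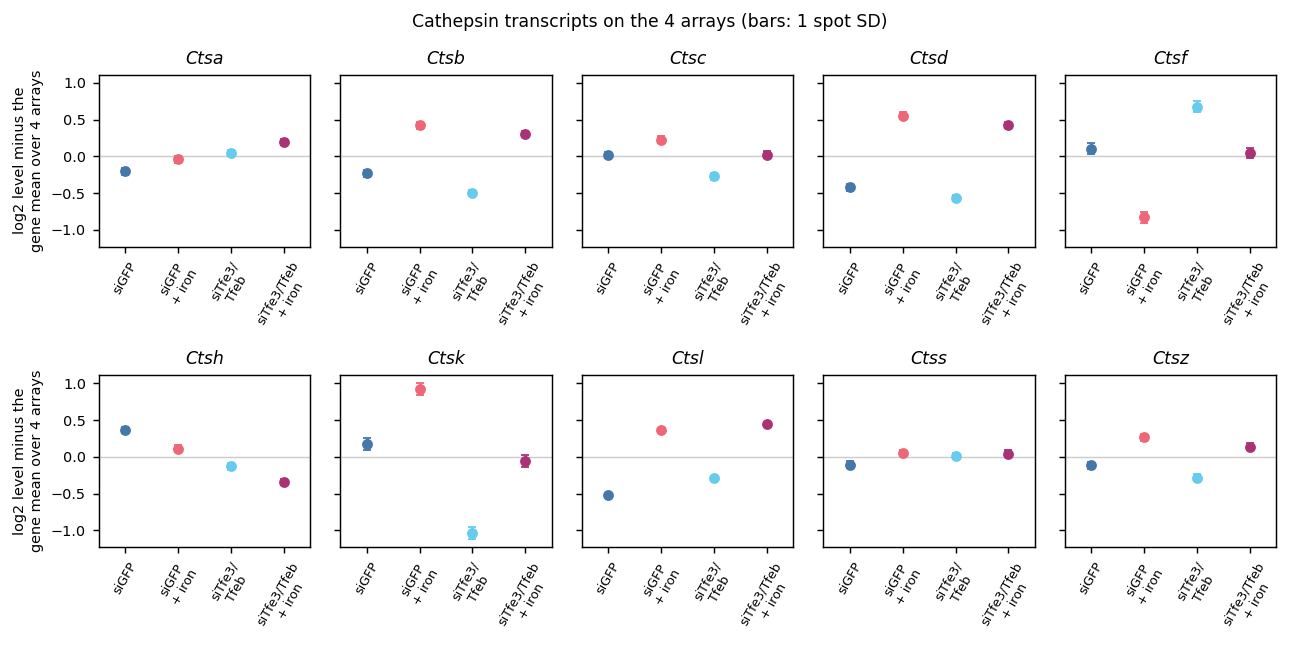
Log2 level of each cathepsin on each array minus the gene's own mean over the 4 arrays, 1 panel per gene. Bars are the SD of repeated spots for a level on 1 array (0.044 for bright probes with 1 spot), smaller than the spot SD of a difference. Ctsb, Ctsd and Ctsl are high on both iron arrays, Ctsf is lowest in control cells with iron, Ctsk spans the widest range (1.97 in log2), and Ctss hardly moves (0.16).

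Ctsd, the main aspartic protease of lysosomes, gave the largest difference with iron in control cells, and with Ctsk the largest in siTfe3/Tfeb cells, where the 2 lay within 1 spot SD of each other (0.995 and 0.99). Its processed signal was 40038 without iron and 79589 with iron in control cells, and 37167 and 69022 in siTfe3/Tfeb cells. Both iron arrays were far above both arrays without iron. After scaling it was 1.96-fold higher with iron in control cells and 1.99-fold in siTfe3/Tfeb cells (log2 differences 0.97 and 0.995, spot SD 0.063). These values lie at the edge of 2-fold, and some other scalings put Ctsd just past it. With knockdown Ctsd was at -0.15 without iron and -0.12 with iron, which is about 2 spot SDs, and the latter ran from -0.24 with normexp and quantile normalization to -0.030 with median centring. The probe lies at chromosome 7, 149561962 to 149562021 (array design coordinates on mm9, as for all probes here); the exon or untranslated region of each probe was not looked up.

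Ctsl, an endopeptidase that also cuts the invariant chain in some cells, is the member with the best measured error, since its probe (chromosome 13, 64465287 to 64465346) is spotted 10 times per array. The mean signals were 28675 without iron and 53581 with iron in control cells, and 34775 and 53754 in siTfe3/Tfeb cells. The 10 control spots ran from 26851 to 30073 without iron and from 50851 to 56239 with iron, and in siTfe3/Tfeb from 32083 to 36100 and from 51025 to 55605. No spot without iron reached any spot with iron, and the control and siTfe3/Tfeb spots without iron did not overlap either.

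Taken spot by spot at the same position within each array, the Ctsl log2 difference with iron was 0.88 ± 0.020 (SD, n = 10 spots) in control cells and 0.73 ± 0.035 in siTfe3/Tfeb cells. The iron response was therefore smaller by 0.15 ± 0.031 in the siTfe3/Tfeb cells, and this difference was below 0 at all 10 spots. With other scalings of the arrays it ran from -0.29 (quantile normalization) to -0.083 (median centring). The knockdown difference was 0.24 ± 0.038 without iron and 0.086 ± 0.019 with iron, and the latter was -0.031 with quantile normalization. These SDs are of spots on single arrays and not of cultures.

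**Figure D2:**
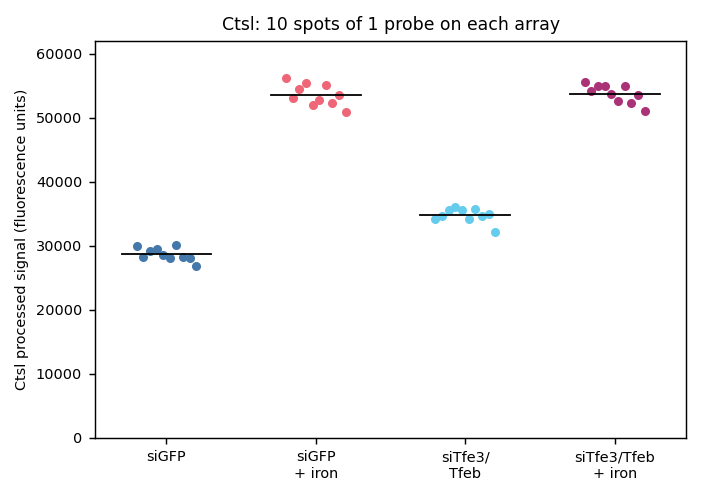
Processed signal of each of the 10 Ctsl spots on each array, in fluorescence units on a linear axis from 0; black lines are means. The lowest spot with iron lies at 50851 and those without iron at 36100 or below.

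Ctsb, which acts both inside proteins and as a dipeptidase at their carboxyl end, was also higher with iron. Its signal (probe at chromosome 14, 63761826 to 63761885) was 110294 without iron and 175548 with iron in control cells, and 93943 and 152728 in siTfe3/Tfeb cells. As with Ctsd and Ctsl, both iron arrays stood above both others. The folds with iron were 1.57 in control cells and 1.75 in siTfe3/Tfeb cells (log2 0.65 and 0.80, spot SD 0.063). With knockdown Ctsb was at -0.27 without iron and -0.12 with iron in log2, and the latter ran from -0.25 with normexp and quantile normalization to -0.025 with median centring.

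Ctsk, the collagen-degrading protease best known from osteoclasts, differed most with knockdown and was also higher with iron. Its signal (chromosome 3, 95313165 to 95313224) was 467 without iron and 801 with iron in control cells, and 208 and 383 in siTfe3/Tfeb cells. The control array with iron was highest and the siTfe3/Tfeb array without iron lowest, a 3.91-fold range. The control array without iron and the siTfe3/Tfeb array with iron differed by 0.22, less than 2 spot SDs. Ctsk was 1.69-fold and 1.98-fold higher with iron (0.76 and 0.99 in log2, spot SD 0.11). It was 2.31-fold lower with knockdown without iron (-1.21) and 1.98-fold lower with iron (-0.98). The knockdown difference without iron was -0.99 with normexp background correction, which ends the 2-fold call.

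Ctsf, a papain-family endopeptidase, was the only member at least 1.5-fold lower with iron and the only one at least 1.5-fold higher with knockdown. Its signal (chromosome 19, 4860454 to 4860513) was 933 without iron and 494 with iron in control cells, and 1426 and 858 in siTfe3/Tfeb cells. The siTfe3/Tfeb array without iron was highest and the control array with iron lowest, the reverse of the end points of Ctsk. The middle arrays, control without iron and siTfe3/Tfeb with iron, differed by 0.058, within the spot SD of 0.10.

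Ctsf was 1.91-fold lower with iron in control cells (-0.93) and 1.55-fold lower in siTfe3/Tfeb cells (-0.63). The latter was -0.58 with median centring or normexp background correction and -0.56 with quantile normalization added to normexp, under 1.5-fold. With knockdown Ctsf was 1.49-fold higher without iron (0.57), just short of 1.5-fold and past it with median centring or quantile normalization, and 1.84-fold higher with iron (0.88).

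Ctsz, a carboxypeptidase, and Ctsc, the dipeptidyl peptidase that activates serine proteases of immune granules, had differences of the same sign as those of Ctsb in all 4 comparisons, smaller with iron. Ctsz (chromosome 2, 174253228 to 174253287) read 41403 without iron and 54558 with iron in control cells, and 37934.5 and 47363 in siTfe3/Tfeb cells. In log2 that is higher by 0.38 and 0.42 with iron, and -0.17 and -0.12 with knockdown. The last of these was -0.028 with median centring and -0.25 with normexp and quantile normalization. Ctsc (chromosome 7, 95458436 to 95458495) read 3136, 3672, 2638 and 3016 in the same order. It was at 0.21 and 0.30 with iron and at -0.29 and -0.20 with knockdown, the latter -0.11 with median centring. Control without iron and siTfe3/Tfeb with iron were level within the spot SD (gap 0.0071). Of the 45 pairs of members, Ctsc and Ctsz had the most alike profiles over the 4 arrays (root mean square distance 0.091).

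Ctsh, an aminopeptidase, was lower both with iron and with knockdown by its brightest probe. With knockdown without iron its dimmer probes stood at -0.28, 0.0095 and 0.23, as described below. Its brightest probe (chromosome 9, 89970828 to 89970887) read 83439.6 without iron and 70976 with iron in control cells, and 60892 and 49014 in siTfe3/Tfeb cells. Each step in that order was larger than 2 spot SDs. In log2 it was at -0.25 and -0.21 with iron, and at -0.49 and -0.45 with knockdown. Quantile normalization brought the value with iron in control cells to -0.14.

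Ctss, the endopeptidase that macrophages and other antigen-presenting cells use to remove the invariant chain from MHC class II, was nearly level. It read 80587 without iron and 91062 with iron in control cells, and 89664 and 85383 in siTfe3/Tfeb cells (chromosome 3, 95360162 to 95360221). Its whole range was 0.16 in log2, and no neighbours in the order of the arrays differed by 2 spot SDs. Ctss is encoded beside Ctsk, with 1 predicted gene between them in RefSeq, yet with knockdown without iron Ctsk stood at -1.21 and Ctss at 0.12.

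Ctsa, the carboxypeptidase that also shields beta-galactosidase and neuraminidase 1 in a complex, was slightly higher with both iron and knockdown. It read 100006 without iron and 113344 with iron in control cells, and 122412 and 126353 in siTfe3/Tfeb cells (chromosome 2, 164665023 to 164665082). The log2 differences were 0.16 and 0.15 with iron, and 0.25 and 0.24 with knockdown. With iron in control cells the value ran from 0.069 averaged over probes to 0.26 with quantile normalization. With knockdown with iron it ran from 0.11 with quantile normalization to 0.42 averaged over probes, 1 of them dim.

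**Figure D3:**
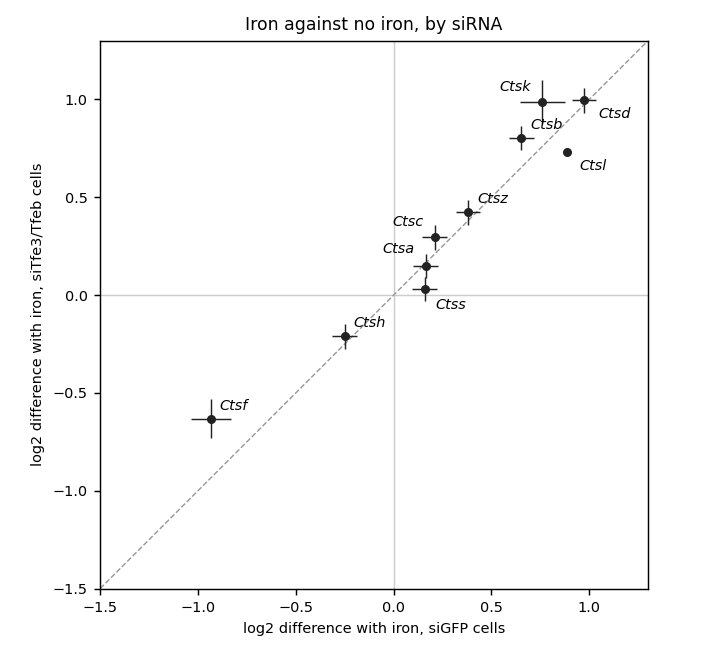
Log2 difference with iron for each cathepsin in control (siGFP) cells (x axis) and siTfe3/Tfeb cells (y axis), which share no array; bars are 1 spot SD and the dashed line marks equal responses. Ctsd, Ctsl, Ctsk and Ctsb lie at the upper right, Ctsh and Ctsf at the lower left.

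The sign of the iron difference was the same in both siRNA groups for all 10 cathepsins (8 above 0, 2 below), as it was for 72.0% of 13859 genes measured on all arrays. Of all genes, 46% were above and 54% below 0 in control cells, and 49.1% and 50.9% in siTfe3/Tfeb cells. The difference between the responses, siTfe3/Tfeb minus siGFP, ran from -0.15 for Ctsl to 0.30 for Ctsf, with a median of 0.041. It was above 0 for 7 members and below 0 for 3, against 50.1% and 49.9% of genes. With quantile normalization, with or without normexp, Ctsd, Ctsh and Ctsz were below 0 too, which gives 4 above and 6 below. None of the 10 reached 1.5-fold in either direction, as 2.63% and 2.48% of genes did, nor 2-fold, as 0.281% and 0.346% did. For Ctsf the 0.30 is about 2 spot SDs (0.14), and for Ctsk it was 0.23 with a spot SD of 0.16. Ctsd responded with 0.022 between the groups, within its spot SD of 0.089, and 1 array per group cannot show that the responses are equal.

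With knockdown, 1 of the 10 (Ctsk) was at least 2-fold lower without iron, against 1.84% of 14314 genes, and none was 2-fold higher, against 1.39%. With iron none was 2-fold higher or lower, against 0.853% and 1.34% of 14064 genes. At 1.5-fold Ctsk was lower both without and with iron, where 7.58% and 5.62% of genes were. None was 1.5-fold higher without iron, against 6.25%, and 1 (Ctsf) was with iron, against 3.97%. The medians of the members were -0.16 and -0.12, against -0.028 and -0.019 for all genes. The knockdown comparisons share no array with each other, and 9 of 10 members had the same sign in both, Ctss being the exception, against 77.6% of genes. With median centring Ctss with iron was at 0.083, and 10 of 10 had the same sign; with quantile normalization 8 had. Ctsa, Ctsf and Ctsl were above 0 in both, and 6 others below 0. Without iron 4 members were above and 6 below 0, against 46.5% and 53.5% of genes, and with iron 3 and 7, against 47.2% and 52.8%. Ctsl with iron was below 0 with quantile normalization, and Ctss without iron did so with normexp and quantile normalization together (-0.0051).

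**Figure D4:**
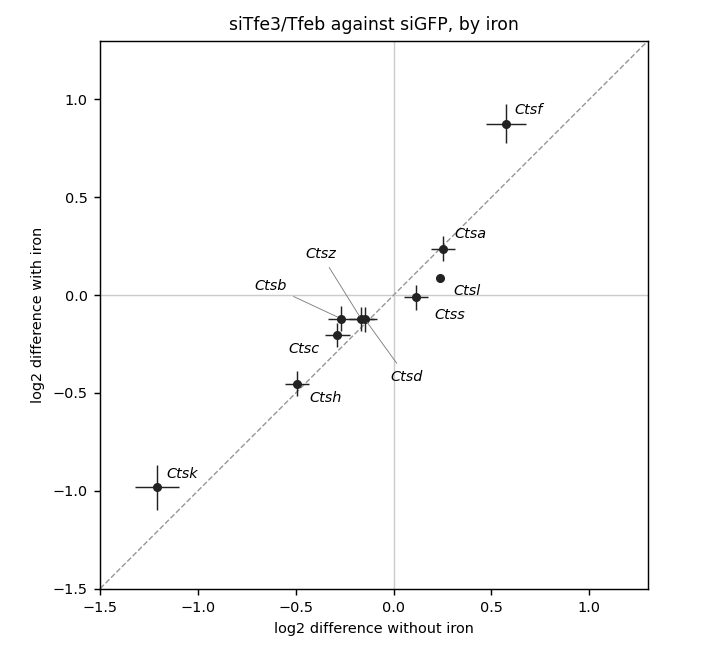
Log2 difference of siTfe3/Tfeb against control for each cathepsin without iron (x axis) and with iron (y axis); bars are 1 spot SD and the dashed line marks equal differences. Ctsk (-1.21 and -0.98) and Ctsf (0.57 and 0.88) lie at opposite ends, with the other 8 between -0.49 and 0.25.

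Further probes of 4 members give a view of the same genes from other transcripts or exons. Ctsh has 5 probes, of which 4 were well above background. With iron in control cells those 4 lay between -0.25 and -0.22. With knockdown without iron they parted: the brightest stood at -0.49 and a dimmer one (chromosome 9, 89956440 to 89957591, across an intron) at -0.28. Another (89966726 to 89969727, also across an intron) stood at 0.0095, and one designed on an Ensembl transcript (89950039 to 89950098) at 0.23 with a spot SD of 0.11. The lower Ctsh signal without iron thus held for 2 of 4 probes, and averaged over them the difference was -0.13. With iron all 4 were below 0, from -0.45 to -0.10.

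The further Ctsc probes were designed on a shorter RefSeq transcript variant. The brighter of them (chromosome 7, 95439346 to 95439405) was at -0.049 and -0.17 with iron, where the main probe was at 0.21 and 0.30. With knockdown it was at 0.12 without iron and 0.0045 with iron, where the main probe was below 0. A second one was dim, with a spot SD of 0.49 that exceeds its iron differences (-0.023 and 0.059). A second Ctsa probe was as dim and read 0.37 and 0.605 with knockdown. Averaged over its 3 probes, Ctsc was at 0.046 and 0.062 with iron. The second Ctsl probe and the fifth Ctsh probe were not well above background on any array.

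**Figure D5:**
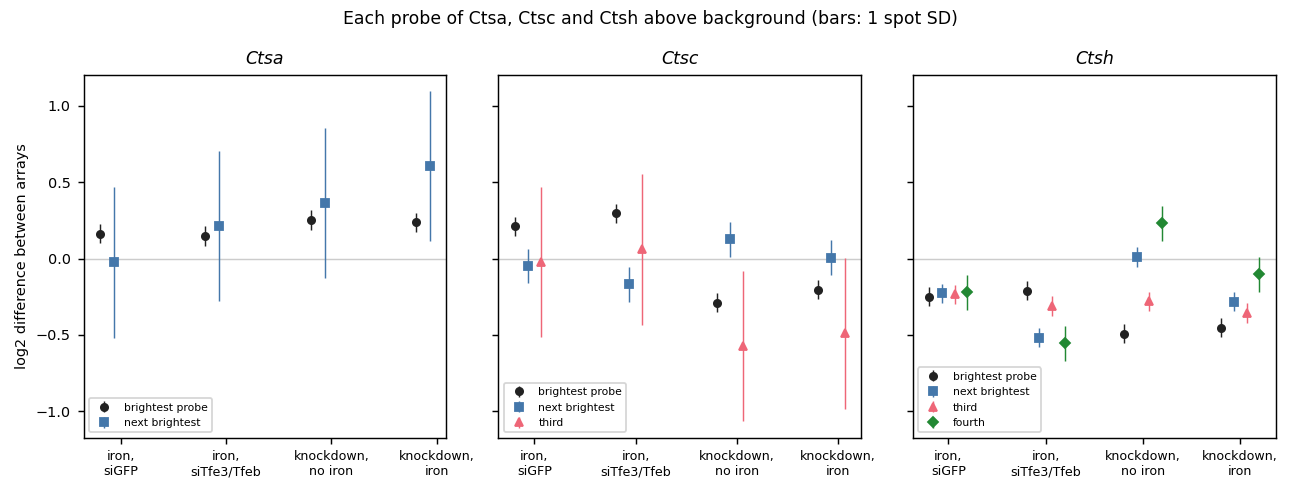
Log2 differences for each probe of Ctsa, Ctsc and Ctsh that was well above background, in the comparisons iron in control cells, iron in siTfe3/Tfeb cells, knockdown without iron and knockdown with iron; bars are 1 spot SD. The Ctsh probes lie close together for iron in control cells and spread from -0.49 to 0.23 for knockdown without iron.

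Genes with the most similar profile were sought for the 3 members with the widest range, by root mean square distance between centred log2 levels over the 4 arrays, among 12492 genes. For Ctsd the closest was Cstb (stefin B, an inhibitor of cysteine cathepsins) at 0.034, with iron differences of 0.98 and 0.95, then Lrp12 (0.056) and the matrix metalloproteinase Mmp19 (0.060). For Ctsk they were Acsbg1 (0.052), Pla1a (0.061) and the secreted phospholipase Pla2g5 (0.064), with knockdown differences of -1.16, -1.15 and -1.28 without iron. For Ctsf they were Tstd1 (0.10), Gpr155 (0.10) and Izumo4 (0.11), of which Tstd1 and Gpr155 are so dim that their spot SD (0.49) exceeds these distances. Within a distance of 0.1 lay 14 genes for Ctsd, 7 for Ctsk and 0 for Ctsf. The distance of each gene named here was smaller than the spot SD at its level, so the order among them is not resolved. With 4 arrays such likeness is a description.

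Of 12 further mouse cathepsins listed, Ctse and Ctso were well above background on all arrays. Ctse, an aspartic protease, was at -0.18 and -0.35 with iron, and Ctso, a dim papain-family gene, at -0.12 and -0.017 (spot SD 0.49). Ctsw and Cts7 were above background on 1 array each, and Ctsg and the 7 others, mostly placental cathepsins, on none.

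Other lysosomal peptidases had no member at 2-fold in any comparison. With iron 4 of 7 were above 0 in each siRNA group (medians 0.30 and 0.16), where 46% and 49.1% of all genes were. Scpep1, a serine carboxypeptidase, stood at 0.74 and 0.38, Dpp7, a dipeptidyl peptidase, at 0.51 and 0.26, and Prcp, a prolyl carboxypeptidase, at -0.28 and -0.48. The difference of responses was below 0 for all 7 (median -0.17), or for 6 with median centring, against 49.9% of all genes.

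Of 11 cathepsin inhibitors, 6 were measured on all arrays. With iron Cst7 (cystatin F) was at 0.84 in control cells and 1.01 in siTfe3/Tfeb cells. With knockdown 5 of 6 were below 0 without iron and 7 of 7 with iron (medians -0.51 and -0.37), against 53.5% and 52.8% of all genes. With iron it was 5 of 7 with median centring. Stfa2l1, a stefin A, was at -2.21 and -3.01, and Stfa2 at -0.87 and -0.99. With normexp background correction, alone or with quantile normalization, these came nearer to 0, Stfa2l1 to -0.92 and -1.46 and Stfa2 to -0.34 and -0.34 at the nearest. Both stefins are dim (spot SD 0.49), and stefin A genes are near copies of each other whose probes may share targets.

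Genes listed for sorting and activation of lysosomal enzymes included the lysosomal membrane proteins Lamp1 and Lamp2. With iron 7 of 10 were above 0 in control cells and 8 of 10 in siTfe3/Tfeb cells (medians 0.12 and 0.098). Of all genes 46% and 49.1% were, and none of the 10 was at 2-fold. Some lay within their spot SD of 0 in siTfe3/Tfeb cells, such as Lamp2 (-0.018) and Grn (0.041). Igf2r, the large mannose 6-phosphate receptor, stood at 0.47 and 0.72, M6pr, the small one, at 0.067 and 0.37, and Psap (prosaposin) at 0.49 and 0.11. The partners of Ctsa, Glb1 (beta-galactosidase) and Neu1 (neuraminidase 1), stood at 0.27 and 0.26 with iron in control cells and at 0.013 (-0.023 at the lowest of the other scalings) and 0.21 in siTfe3/Tfeb cells.

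Among the substrates and partners of Ctss in antigen processing, 3 of 5 measured genes were above 0 with iron in each group, where 46% and 49.1% of all genes were. H2-Eb1 and H2-Ab1, MHC class II chains, stood at 0.56 and 0.46 in control cells. H2-DMb1, part of the peptide exchange factor, was at -0.72 with iron there and at -1.68 with knockdown without iron. H2-Aa was not well above background on any array.

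Osteoclast genes listed around Ctsk included larger differences. Of 11 measured, 4 were at least 2-fold higher with iron in each siRNA group, against 1.4% and 1.61% of all genes (medians 0.45 and 0.46). With iron in control cells 1, Mmp9, was 2-fold lower, against 0.266% of all genes. With knockdown 4 were 2-fold lower without iron (3 with normexp) and 3 with iron, against 1.84% and 1.34% of all genes (medians -0.29 and -0.27). By sign, 8 were above 0 with iron in control cells and 9 in siTfe3/Tfeb cells (10 with the other scalings). Of all genes 46% and 49.1% were. With knockdown without iron 4 were above 0 and 7 below, where 46.5% of all genes were above. With knockdown with iron 3 were above and 8 below (4 and 7 with median centring), where 47.2% of all genes were above. Atp6v0d2, a proton pump subunit, stood at 2.34 and 2.69 with iron and at -2.46 and -2.11 with knockdown. Ocstamp, a fusion protein, stood at 1.61 and 0.80 with iron and at -1.03 and -1.84 with knockdown. Mmp9, a gelatinase, stood at -1.52 and 0.25 with iron and at -3.74 and -1.96 with knockdown. Atp6v0d2 and Ocstamp thus had the signs of Ctsk in all 4 comparisons, as did Acp5, Dcstamp and Itgb3, and Mmp9 had them in 3. For Itgb3 the value with knockdown without iron (-0.056) lay within its spot SD of 0.10. Oscar, Clcn7, Ostm1 and Tnfrsf11a had the signs of Ctsk in some comparisons but not all. Nfatc1 had the opposite sign in all 4, at -0.14 and -0.46 with iron and at 0.65 and 0.34 with knockdown. By mean level Ocstamp and Mmp9 fall in the dimmest bin (spot SD 0.49), though Mmp9 read 518 in control cells without iron. In the 4 comparisons the values of Atp6v0d2, Ocstamp, Mmp9, Nfatc1, Acp5, Dcstamp and Itgb3 kept their signs under the 5 other scalings.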

How the data were processed

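RNA of 4 RAW264 samples, 1 per group, was labelled with Cy3 and hybridised to Agilent arrays, per the labels' protocols. Agilent Feature Extraction (12.0.3.1) produced the scanner files, per the submitters' processing notes. The deposited intensity used is the processed signal, from which background has been subtracted with a spatial detrend, without scaling between arrays, per the file headers. The authors also deposited a matrix of log2 values. Set against the scanner files, its array-to-array differences gave slope 1 and r 1. Each probe is centred on its median over the arrays (largest median of a probe 5e-07), and the column medians were -0.0042, 0.022, -0.087 and 0.0013.

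There was 1 slide and 1 scan time for the 4 arrays. The scaling factor, the 75th percentile of processed signal over 59305 non-control spots, ran from 593 to 636, no spot was saturated, and 14337 to 14904 genes were well above background per array. Log2 levels are log2 of the signal minus log2 of that percentile. Spots with an outlier flag were dropped (3 probes lost), and repeated spots were averaged per probe. Names came from RefSeq (GRCm38.p6) by accession for 33767 of 56605 probes and by symbol for 10176, and 12662 stayed unnamed. The 18 member probes carried the same name in the array annotation. A gene was represented by its brightest probe and measured in a comparison where well above background on each array used. Repeated spots for the spot SD were probes with at least 10 spots.

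The members and gene lists were chosen with earlier results of these data known. Named are all members, Tfe3 and Tfeb, up to 3 genes per list with the largest difference in any comparison, and 3 similar genes for each of the 3 members of widest range. Some further listed genes are named beside them. The 1.5-fold count beside the 2-fold one was added after the values were seen. Alternatives were median centring, quantile normalization, normexp (limma 3.58.1, offset 50) with and without it, the series matrix, averaging all probes of a gene and no filter on background. The 5 scalings among them were also applied to the listed genes, a step added after the values were seen.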

Additional observations from a re-analysis of the deposited data

Results flagged for a closer look

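Ctss was the member whose knockdown difference had opposite signs without and with iron (0.12 and -0.012, spot SD 0.063). The iron response in siTfe3/Tfeb cells was lower by 0.13 than in control cells, a log2 difference of responses of -0.13. This difference was not tested, since each group is 1 array, and the value with iron lies within its spot SD of 0. The signs were not opposite with median centring (0.14 and 0.083) or with normexp and quantile normalization (-0.0051 and -0.14).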

How the results depend on the processing

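No paired analysis was possible because each group is 1 array, and no replicate could be left out; slide and scan could not be fitted as a block, since all arrays share them. Among the cathepsins, each difference of at least 1.5-fold kept its direction under all 7 alternatives. The filter on background changed no member's value. Averaging over probes changed none of those 1.5-fold differences, since the genes had only 1 probe well above background each. Median centring and the series matrix shift whole arrays, by at most 0.095, and so could not turn a 1.5-fold difference. The median with knockdown with iron was -0.027 with median centring, -0.21 with quantile normalization and -0.20 with normexp and quantile normalization. The median difference of iron responses was -0.063 and -0.060 with the last pair. The counts here are of the 10 cathepsins unless all genes are named. Counts of all genes at 1.5-fold under the other scalings are not given here. Ctsd was the 1 that was 2-fold higher with iron in control cells with quantile normalization and with normexp and quantile normalization. In siTfe3/Tfeb cells 2, Ctsd and Ctsk, were 2-fold higher with median centring and with the series matrix, and 1, Ctsd, with normexp. Ctsf was no longer 1.5-fold lower there, leaving 0, with median centring, with normexp and with normexp and quantile normalization. With knockdown without iron 0 were 2-fold lower with normexp, alone or with quantile normalization, and 1, Ctsf, was 1.5-fold higher with median centring or quantile normalization. With knockdown with iron 2, Ctsh and Ctsk, were 1.5-fold lower with quantile normalization, alone or with normexp. The shift of all genes under any scaling was at most 0.095. The dim genes Ctsk and Ctsf lie nearest to background and their spot SDs rest on few repeated probes.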
